A study of Mus musculus with 24 samples.

Results

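Mature miRNA levels of 4T1, a mouse mammary carcinoma line that the labels call highly metastatic, were compared with those of its sister line 4TO7, which the labels call systemically invasive. The comparison rests on 16 of the 24 arrays of the series, 8 with titles that begin with 4T1 and 8 with titles that begin with 4TO7. The other 8 arrays hold the third sister line, 67NR, called nonmetastatic, whose levels are given only for orientation. Each line had been grown for 6 days in 3D organotypic culture in a compliant or a rigid microenvironment, and treated with TGF-beta (TGFb) or with a drug that blocks the type I receptor for TGF-beta (basal). Both lines therefore had the same 4 conditions, namely compliant basal, compliant TGFb, rigid basal and rigid TGFb, with 2 arrays per line and condition, called set 1 and set 2. No array came from cells that received neither agent, so every basal value is a value with the receptor blocked. Each line is a single established cell line, so any difference between 4T1 and 4TO7 and any difference between these particular cultures of them cannot be told apart. The labels do not say whether set 1 and set 2 were separate cultures, and the p-values measure only the spread between these arrays.

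MicroRNAs are short RNAs that guide Argonaute proteins to messenger RNAs, mostly by pairing of bases 2 to 8 of the miRNA, the seed, and thereby lower the output of those messages. Members of a family share a seed and are expected to act on overlapping sets of messages. In mammary carcinoma cells the miR-200 family is known for keeping cells epithelial by repressing the transcription factors Zeb1 and Zeb2, which in turn repress E-cadherin and the miR-200 genes. TGF-beta signalling raises the Zeb factors in many epithelial cells.

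The mature sequences that set apart the miRNAs described first are shown 5′ to 3′ from RefSeq (assembly GRCm38.p6), with the seed in capitals, because 11 of the 15 largest rises in 4T1 fall on 4 seeds. Most of the array's older names carry no arm, and each was matched by hand to the dominant mature arm, for 23 of 23 names looked for. The miR-200 family has a pair of seeds, AAUACUG and AACACUG, that differ by 1 letter.
miR-200c: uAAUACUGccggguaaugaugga
miR-200b: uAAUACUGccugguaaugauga
miR-429: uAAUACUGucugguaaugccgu
miR-141: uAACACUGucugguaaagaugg
miR-200a: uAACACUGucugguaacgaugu
The genes of miR-200b, miR-200a and miR-429 lie on chromosome 4 between 156053905 and 156055750, and those of miR-200c and miR-141 on chromosome 6 between 124717914 and 124718390, all on the minus strand.

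The 4 members of the miR-181 family share the seed ACAUUCA, and the 2 miR-146 miRNAs share the seed GAGAACU.
miR-181a: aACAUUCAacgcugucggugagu
miR-181b: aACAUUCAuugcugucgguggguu
miR-181c: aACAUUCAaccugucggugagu
miR-181d: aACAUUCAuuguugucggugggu
miR-146a: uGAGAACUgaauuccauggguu
miR-146b: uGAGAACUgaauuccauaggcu
MiR-181a and miR-181c differ by 1 letter, miR-181b and miR-181d by 2, miR-146a and miR-146b by 2, miR-200b and miR-200c by 2, and miR-200a and miR-141 by 2. How much such near copies hybridise to each other's probe was not tested, so the values of near copies are not fully separate measurements.

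The miRNAs lower in 4T1 that are described at most length have unrelated seeds, apart from miR-322 and miR-503, whose seeds differ by 1 letter.
miR-148a: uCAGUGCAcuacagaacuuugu
miR-205: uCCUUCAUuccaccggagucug
miR-210: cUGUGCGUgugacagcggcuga
miR-322: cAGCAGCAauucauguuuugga
miR-503: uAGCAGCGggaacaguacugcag
MiR-148a lies on chromosome 6, miR-205 on chromosome 1, miR-210 on chromosome 7, and miR-322 and miR-503 side by side on chromosome X between 53054027 and 53054327.

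Levels below are log2 relative intensities after quantile normalization between arrays, and differences are 4T1 minus 4TO7 on the log2 scale with their standard error (SE). Each intensity is relative to a second dye measured on the same spot, so levels of different miRNAs are not compared with each other. A probe counted as detected on an array if its detection p-value was under 0.05, and as changed if limma's p-value, adjusted over the 365 probes tested, was under 0.05. Between 334 and 357 of the 558 mouse miRNA probes were detected on each 4T1 array and between 323 and 348 on each 4TO7 array. Arrays of 1 group correlated at r = 0.995 to 0.998 across probes in these lines, 4T1 arrays correlated with 4TO7 arrays at r = 0.957 to 0.979, and arrays of 1 line under different conditions at r = 0.984 to 0.997.

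Over the 4 conditions, 230 of the 365 probes differed between the lines (63.0%), 84 higher in 4T1 (23.0%) and 146 lower (40.0%), by limma's moderated test. The changes were unequal in size. Of the higher miRNAs 11 were more than 2-fold higher in 4T1 and 15 more than 1.5-fold, whereas no lower miRNA passed 2-fold and 3 passed 1.5-fold. Changes under 1.25-fold made up 123 of the 146 lower calls and 45 of the 84 higher calls. The lowest 4T1 array lay above the highest 4TO7 array for 25 of the 365 probes (6.85%), and the highest 4T1 array lay below the lowest 4TO7 array for 29 (7.95%). In 52 cases the difference passed the test with the same sign in each of the 4 conditions taken alone.

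**Figure D1:**
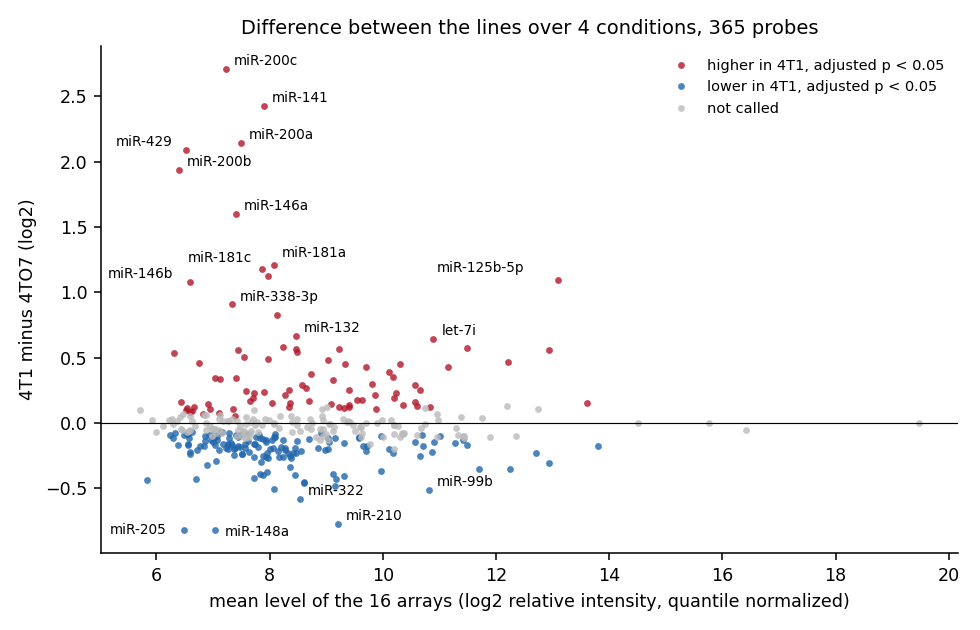
Difference between 4T1 and 4TO7 over 4 conditions (log2, vertical axis) against the mean level over the 16 arrays (log2 relative intensity, horizontal axis), with 1 point per probe for the 365 probes tested. The miR-200 family stands at the top, between 1.94 and 2.71, and most lower calls lie close to 0.

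The balance of small changes depended on how the arrays were brought to a common scale. The median difference of all 365 probes was -0.0675 with quantile normalization, and the split of higher and lower calls was 84 to 146. It was 69 to 194 with median scaling (median -0.104), 68 to 198 with median scaling over the probes detected on all arrays (median -0.11) and 87 to 119 in the authors' deposited value table (median -0.0364). Without normalization it was 124 to 17 (median 0.118), and scaled on the spike-in probes it was 123 to 7 (median 0.167). Under every setting in which they were tested, 61 higher and 7 lower miRNAs passed, and the 7 were miR-148a, miR-205, miR-210, miR-322, miR-350, miR-693-5p and miR-99b. Smaller falls described below are therefore falls relative to the bulk of the miRNAs on the array. MiR-148a and miR-205 were not tested in the authors' deposited table, nor miR-205 where detection on all arrays of a line was required. That table also lacks miR-200c, miR-200b, miR-429 and miR-146a, so it tested only 2 of the 5 miR-200 miRNAs. MiR-205 entered the test only through the 2 compliant basal arrays of 4TO7, the only arrays that detected it.

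Slides could be checked only in part, since the lines were spread unevenly over them. Slide 3 held 3 4T1 arrays and no 4TO7 array, and slide 4 held 4 4TO7 arrays and no 4T1 array. In compliant TGFb and in rigid basal the lines shared no slide, so those gaps could not be compared within a slide. Matched arrays of both lines lay on 1 slide for rigid TGFb and on another for compliant basal, and within these pairs 93% and 91.7% of the 230 changed miRNAs had the same sign as over all arrays. All 18 changed miRNAs past 1.5-fold kept their sign in both pairs. These pairs belong to the arrays that gave the calls and the signs, so such agreement is partly built in. It is therefore not a separate test of the slides. For miR-205 the rigid TGFb pair differed by only -0.075, between signals undetected in both lines. With slide as a fixed block, 71 miRNAs were higher and 113 lower.

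The 5 members of the miR-200 family were the 5 largest differences of the comparison, all higher in 4T1. MiR-200c had a lowest, median and highest level of 8.28, 8.59 and 8.75 on the 4T1 arrays, against 5.80, 5.88 and 5.93 on the 4TO7 arrays. It was detected on all 8 4T1 arrays and on none of the 8 4TO7 arrays, which makes it at least 6.13-fold higher in 4T1 (difference of the measured levels 2.71 ± 0.04). Such bounds set the 4T1 mean against the lowest signal called present on each 4TO7 array, or the probe's own signal where that was higher. MiR-429 ran from 7.45 to 7.63 (median 7.57) in 4T1 and from 5.40 to 5.59 (median 5.45) in 4TO7, and miR-200b from 7.20 to 7.52 (median 7.36) and from 5.32 to 5.50 (median 5.45) in the same order. Both were likewise detected on all 4T1 and no 4TO7 arrays, for at least 3.21-fold and at least 2.81-fold higher levels in 4T1.

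MiR-141, the partner of miR-200c on chromosome 6, was detected on all 16 arrays. Its lowest, median and highest levels were 9.01, 9.10 and 9.28 in 4T1 and 6.58, 6.69 and 6.78 in 4TO7, a 5.38-fold difference (2.43 ± 0.04). MiR-200a, between miR-200b and miR-429 on chromosome 4, ran from 8.32 to 8.67 (median 8.57) in 4T1 and from 6.32 to 6.54 (median 6.42) in 4TO7, where 6 of 8 arrays detected it, a 4.42-fold difference (2.14 ± 0.04). No 4TO7 array reached the lowest 4T1 array for any of the 5. In 67NR the mean levels were 5.74 for miR-200c, 6.64 for miR-141, 6.35 for miR-200a, 5.50 for miR-429 and 5.48 for miR-200b, beside 4TO7 means of 5.87, 6.69, 6.42, 5.47 and 5.43. The differences between 4T1 and 4TO7 were of similar size in the 4 conditions, from 2.54 to 2.83 for miR-200c and from 1.86 to 2.05 for miR-200b. Neither the response to TGFb nor that to rigidity differed between the lines beyond the threshold for any of the 5 (adjusted p from 0.152 to 0.813 and from 0.502 to 0.977 in limma).

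The probes of the passenger strands were undetected on most arrays. The probe for miR-200c* had a mean of 6.60 ± 0.06 in 4T1 and 6.67 ± 0.08 in 4TO7 (SD, n = 8 each), and that for miR-200b* 7.25 ± 0.05 in 4T1 and 7.33 ± 0.07 in 4TO7 (SD, n = 8 each). They were detected on 4 and 3 of the 4T1 arrays and on 1 and none of the 4TO7 arrays. The differences of -0.07 and -0.08 passed the test (adjusted p = 0.027 and 0.0347 in limma), but with slide as a block they did not (adjusted p = 0.268 and 0.156), and their sign turned without normalization and with spike-in scaling.

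**Figure D2:**
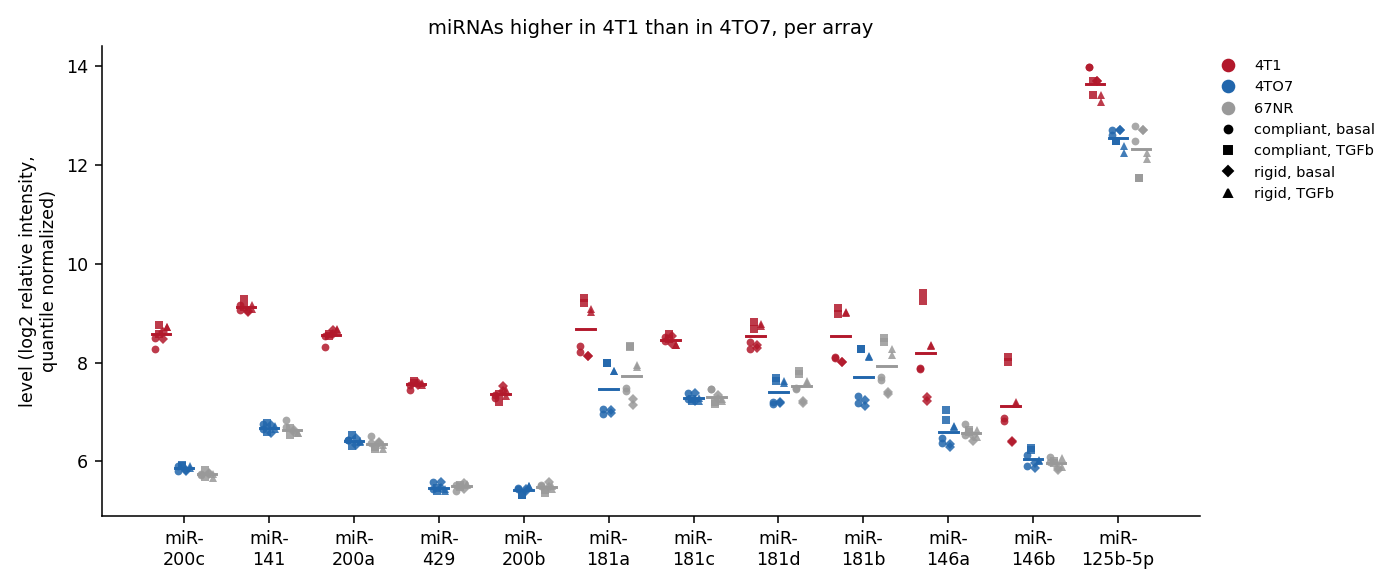
Levels (log2 relative intensity, quantile normalized) of 12 miRNAs higher in 4T1, with 1 point per array, symbols for the conditions and bars for the line means (8 arrays each). The 4T1 points of the 5 miR-200 miRNAs form tight groups above all 4TO7 and 67NR points, whereas miR-181a, miR-181b, miR-146a and miR-146b spread by condition; levels of different miRNAs are not comparable.

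All 4 members of the miR-181 family were higher in 4T1. This family is best known from lymphocyte development and has been linked to TGF-beta responses in mammary cells. MiR-181a ran from 8.13 to 9.30 (median 8.68) in 4T1 and from 6.96 to 8.0 (median 7.45) in 4TO7, a 2.32-fold difference (1.21 ± 0.03). MiR-181c ran from 8.36 to 8.58 (median 8.46) in 4T1 and from 7.23 to 7.38 (median 7.26) in 4TO7, a 2.26-fold difference, and miR-181d from 8.26 to 8.82 (median 8.54) in 4T1 and from 7.17 to 7.69 (median 7.40) in 4TO7, a 2.18-fold difference. The arrays of the lines did not overlap for these 3. MiR-181b, from 8.01 to 9.10 (median 8.55) in 4T1 and from 7.13 to 8.27 (median 7.72) in 4TO7, overlapped over all conditions but differed 1.78-fold on average (0.83 ± 0.03).

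The miR-181 miRNAs differed from each other in how they moved with treatment, while the gap between the lines did not change with treatment beyond the threshold. With TGFb, miR-181a was higher by 0.95 in 4T1 and by 0.90 in 4TO7, and miR-181b by 0.97 in 4T1 and 0.98 in 4TO7. MiR-181d was higher by 0.42 in 4T1 and by 0.44 in 4TO7, whereas miR-181c changed by -0.02 in 4T1 and -0.06 in 4TO7. The gap between 4T1 and 4TO7 was 1.11 to 1.26 for miR-181a and 0.77 to 0.88 for miR-181b in the 4 conditions, and the difference of the TGFb response between the lines was 0.05 ± 0.05 for miR-181a and -0.0045 ± 0.06 for miR-181b (adjusted p = 0.692 and 0.977 in limma). MiR-181c and miR-181d are neighbours on chromosome 8, and miR-181a and miR-181b are neighbours both on chromosome 1 and on chromosome 2.

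MiR-146a and miR-146b, which dampen NF-kappa-B signalling by repressing Irak1 and Traf6, were higher in 4T1 under every condition. MiR-146a ran from 7.22 to 9.42 (median 8.11) in 4T1 and from 6.29 to 7.04 (median 6.59) in 4TO7, and was detected on 8 4T1 arrays and on 2 4TO7 arrays, both from compliant TGFb. MiR-146b ran from 6.40 to 8.11 (median 7.03) in 4T1 and from 5.87 to 6.27 (median 6.02) in 4TO7, with detection on 8 4T1 and 4 4TO7 arrays. The mean differences were 1.60 ± 0.04 and 1.08 ± 0.03, or 3.03-fold and 2.11-fold, with part of the 4TO7 values at background. MiR-155, which is induced by inflammatory signals, was also higher over all conditions (0.56 ± 0.04), with a gap that passed the test on the basal arrays and not on the TGFb arrays.

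The 15 largest rises were these 5, 4 and 2 miRNAs together with miR-125b-5p, miR-338-3p, miR-132 and let-7i, and all passed the test with adjusted p-values from 2.77e-18 (miR-200c) to 1.97e-09 (let-7i). Only 4T1 arrays brought miR-200c, miR-429 and miR-200b into the test, so their p-values set a detected signal against background. MiR-125b-5p, a miRNA of stem and progenitor cells, ran from 13.27 to 13.97 (median 13.69) in 4T1 and from 12.24 to 12.71 (median 12.54) in 4TO7, a 2.13-fold difference without overlap. At such high ranks quantile normalization leaves only a few possible levels. Its other strand, miR-125b-3p, rose by 0.57 ± 0.03, also without overlap. MiR-338-3p had levels of 7.61 to 7.92 (median 7.80) in 4T1 and 6.65 to 7.09 (median 6.87) in 4TO7, 1.88-fold higher. MiR-132, an activity-induced miRNA downstream of CREB, was 1.59-fold higher (0.67 ± 0.04) and let-7i 1.56-fold higher (0.64 ± 0.04), both with larger differences under TGFb. MiR-135b was detected on only 3 of the 8 4T1 arrays and on no 4TO7 array. Its measured difference of 0.53 ± 0.05 rests mostly on undetected signals, so no fold is given.

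The measured falls of miR-148a, miR-205 and miR-210 in 4T1 exceeded 1.5-fold, and their order depended on the setting. That of miR-205 over the 4 conditions rests mostly on undetected signals, as described below. MiR-148a is abundant in mammary epithelium and represses the DNA methyltransferase Dnmt1. Its lowest, median and highest levels were 6.50, 6.63 and 6.76 on the 4T1 arrays and 7.18, 7.39 and 7.82 on the 4TO7 arrays. It was detected on none of the 8 4T1 arrays and on all 8 4TO7 arrays, so it was at least 1.77-fold lower in 4T1. The arrays of the lines did not overlap. It was the only miRNA found on every 4TO7 array and on no 4T1 array, and 67NR detected it on none of its 8 arrays (mean 6.21).

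MiR-205, a miRNA of basal mammary epithelium that also represses Zeb1 and Zeb2, followed its own course. The 4T1 levels lay between 6.00 and 6.18 (median 6.07) and were called present on no array. The 4TO7 levels ran from 6.25 to 7.76 (median 6.82) and were called present on only the 2 compliant basal arrays, at 7.76 and 7.67. In that condition miR-205 was at least 3.16-fold lower in 4T1. In the other 3 conditions neither line had detectable miR-205, so no fold is given. The 4TO7 signals there, not above background, were 6.79 and 6.54 in compliant TGFb, 7.01 and 6.85 in rigid basal and 6.25 and 6.29 in rigid TGFb. MiR-205 and the miR-200 family, both regulators of the Zeb factors, stood on opposite sides of the comparison, with miR-205 detected in compliant basal alone.

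MiR-210, the best known miRNA induced by hypoxia, ran from 8.0 to 9.60 (median 8.79) in 4T1 and from 8.91 to 10.22 (median 9.62) in 4TO7. It was 1.71-fold lower in 4T1 over all conditions (-0.78 ± 0.06), with overlapping ranges, and its level was lower with TGFb in both lines.

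The cluster on chromosome X that holds miR-322, the mouse counterpart of human miR-424, was lower in 4T1. MiR-322 ran from 8.06 to 8.42 (median 8.27) in 4T1 and from 8.65 to 9.09 (median 8.83) in 4TO7, 1.49-fold lower in 4T1 (-0.58 ± 0.03), without overlap. MiR-503, which shares repression of cell cycle genes with miR-322, ran from 7.37 to 7.64 (median 7.53) in 4T1 and from 7.66 to 8.20 (median 7.95) in 4TO7 (-0.42 ± 0.04). MiR-450a-5p, detected on 1 4T1 array and 5 4TO7 arrays, was lower by 0.43 ± 0.03 with overlapping ranges. Of the 7 probes of this cluster that were tested, 6 passed as lower and none as higher, with a median of -0.32. MiR-322 kept its call under all settings, while miR-503 and miR-450a-5p kept the sign and lost the call with spike-in scaling.

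The remaining large falls were spread over unrelated genes. MiR-99b, of a family that represses mTOR, ran from 10.35 to 10.63 (median 10.58) in 4T1 and from 10.83 to 11.27 (median 11.09) in 4TO7, without overlap (-0.52 ± 0.03). MiR-350 (-0.51 ± 0.03) and miR-693-5p (-0.49 ± 0.04) did not overlap either. MiR-211 and miR-204, which differ by 1 letter and lie in introns of Trpm1 and Trpm3, were lower by 0.46 ± 0.06 and 0.45 ± 0.07 on average, and 67NR had higher levels of both (means 9.49 and 9.53) than 4T1 (8.37 and 8.38) and 4TO7 (8.84 and 8.84). MiR-489 was detected on no 4T1 array and on 7 4TO7 arrays, at least 1.16-fold lower in 4T1. MiR-706 (-0.43), miR-140* (-0.41) and miR-140 (-0.40), of which the last 2 are both strands of a hairpin in an intron of Wwp2, completed the 15 largest falls. Adjusted p-values of these 15 ran from 3.58e-13 for miR-148a to 2.54e-05 for miR-204. Only 4TO7 arrays brought miR-148a, miR-205 and miR-489 into the test, so their p-values compare with background in 4T1. With spike-in scaling 8 of the 15, from miR-211 to miR-140 in this order of size, kept a negative sign but did not pass.

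**Figure D3:**
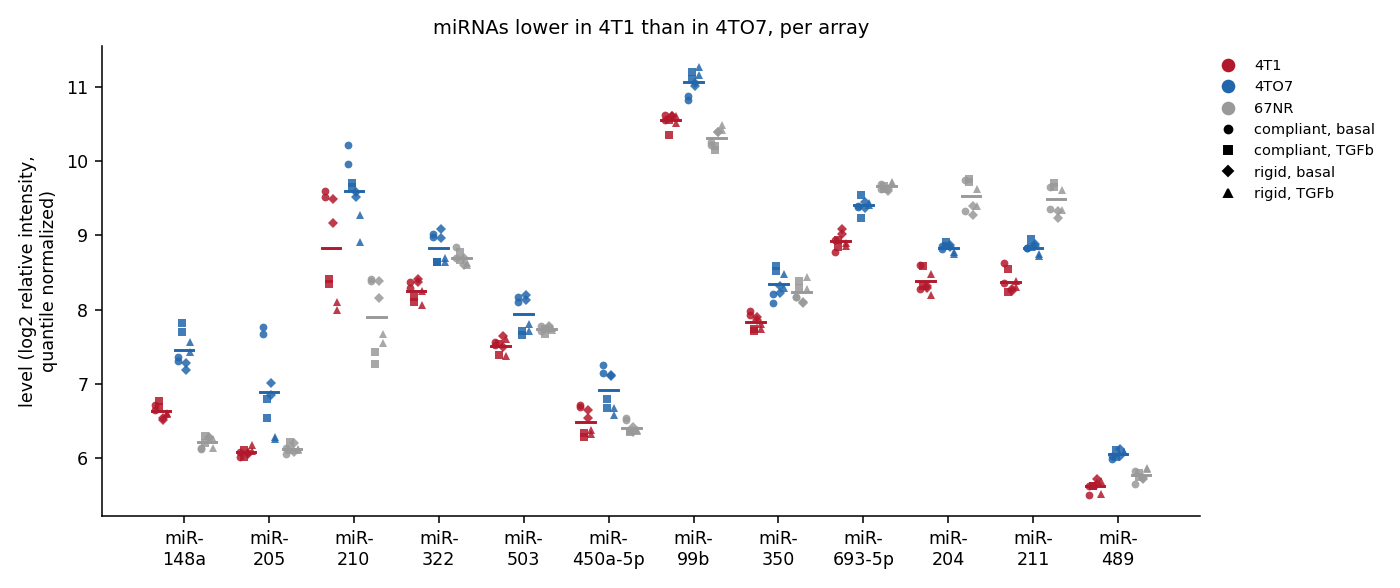
Levels (log2 relative intensity, quantile normalized) of 12 miRNAs lower in 4T1, with 1 point per array, symbols for the conditions and bars for the line means (8 arrays each). MiR-148a, miR-322, miR-99b and miR-489 separate the lines on every array, miR-205 is highest on the compliant basal arrays of 4TO7, and miR-210 spreads by treatment in both lines; levels of different miRNAs are not comparable.

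Families and clusters taken from a list of known groups are described by counts, beside the background of 23.0% higher and 40.0% lower among all probes and the overall median of -0.0675. All 3 probes of the miR-23, miR-27 and miR-24 clusters were higher in 4T1, with a median of 0.56. MiR-24 ran from 11.43 to 11.91 (median 11.77) in 4T1 and from 10.94 to 11.38 (median 11.21) in 4TO7, without overlap. The probes shared by miR-27a and miR-27b and by miR-23a and miR-23b, which cannot tell these copies apart, were higher by 0.56 ± 0.07 and 0.47 ± 0.06.

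Of the 12 tested miRNAs of the oncogenic miR-17 clusters, 9 were higher in 4T1 and none lower, with a median of 0.20. MiR-17 ran from 9.77 to 10.03 (median 9.90) in 4T1 and from 9.30 to 9.79 (median 9.45) in 4TO7, a difference of 0.43 ± 0.04. MiR-18b and miR-18a were higher by 0.35 ± 0.04 and 0.34 ± 0.04 without overlap, and miR-19a (0.06 ± 0.05) did not pass. In 67NR the mean level of miR-17 was 7.14, beside 9.91 in 4T1 and 9.49 in 4TO7, and miR-18a, miR-18b and miR-19a were detected on none of the 67NR arrays. Between 8 and 11 of the 12 were higher and none lower under each scaling and with slide as a block.

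Of the let-7 family, tumour suppressors that repress Ras and Hmga2, 5 of 9 were higher and 2 lower, with a median of 0.12. Let-7i and let-7g (0.39 ± 0.07) led, and let-7b fell by 0.15 ± 0.05. Without normalization and with spike-in scaling the sign of let-7b turned and none of the family was lower. With median scaling over all probes, or over those detected on all arrays, 3 were higher and 2 lower (medians 0.0236 and 0.0184). With slide as a block 4 were higher and none lower. Of 5 miR-30 miRNAs 3 were higher, led by miR-30d (0.37 ± 0.03), and none lower. The miR-130 and miR-301 family shares a seed but was split, with miR-301a and miR-301b higher by 0.58 ± 0.04 and 0.33 ± 0.02 and miR-130b lower by 0.40 ± 0.03. MiR-301a ran from 8.25 to 8.77 (median 8.45) in 4T1 and from 7.74 to 8.11 (median 7.99) in 4TO7, without overlap. MiR-301b and miR-130b are neighbours on chromosome 16 and moved in opposite directions, though miR-130b did not pass without normalization or with spike-in scaling.

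In the miR-34 and miR-449 family, miR-34a, a direct target of p53, alone was higher (0.48 ± 0.04) and 4 of the 6 tested were lower, among them miR-34c by 0.27 ± 0.04. None of the family was called lower without normalization or with spike-in scaling, where miR-34a stayed higher. Other single rises outside the largest were miR-9 (0.54 ± 0.03), which represses E-cadherin, miR-425 (0.50 ± 0.03) and miR-196b (0.46 ± 0.04), each without overlap.

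All 3 members of the miR-29 family, which repress collagens and other matrix genes, were lower in 4T1, with a median of -0.36. MiR-29a ran from 11.91 to 12.24 (median 12.06) in 4T1 and from 12.30 to 12.71 (median 12.39) in 4TO7, without overlap. MiR-29c fell by 0.40 ± 0.05 and miR-29b by 0.35 ± 0.06, with overlapping ranges. MiR-29a and miR-29c differ by 1 letter. The passenger strands miR-29a* and miR-29b* fell by 0.24 and 0.23, and both turned in sign under at least 1 other setting. Spike-in scaling left the 3 guide strands negative (median -0.18) with none called.

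Of the miR-15 and miR-16 family, which represses Bcl2 and cyclins, 5 of 7 were lower and 1 higher, with miR-322 and miR-503 the largest. Without normalization 2 were lower and 1 higher (median 0.0403), with spike-in scaling 1 and 1 (median 0.0895), and with slide as a block 3 and none. MiR-221 and miR-222, which repress the cell cycle inhibitor p27, were lower by 0.37 ± 0.06 and 0.18 ± 0.03. Neither was called without normalization or with spike-in scaling, where the sign of miR-222 turned. Of the epithelial miRNAs outside the miR-200 family, miR-148a, miR-205 and miR-203 (-0.22 ± 0.03) were lower. MiR-205 was undetected in both lines outside compliant basal, and miR-31 (0.13 ± 0.06) did not pass. The call of miR-203 was lost without normalization and its sign turned with spike-in scaling.

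**Figure D4:**
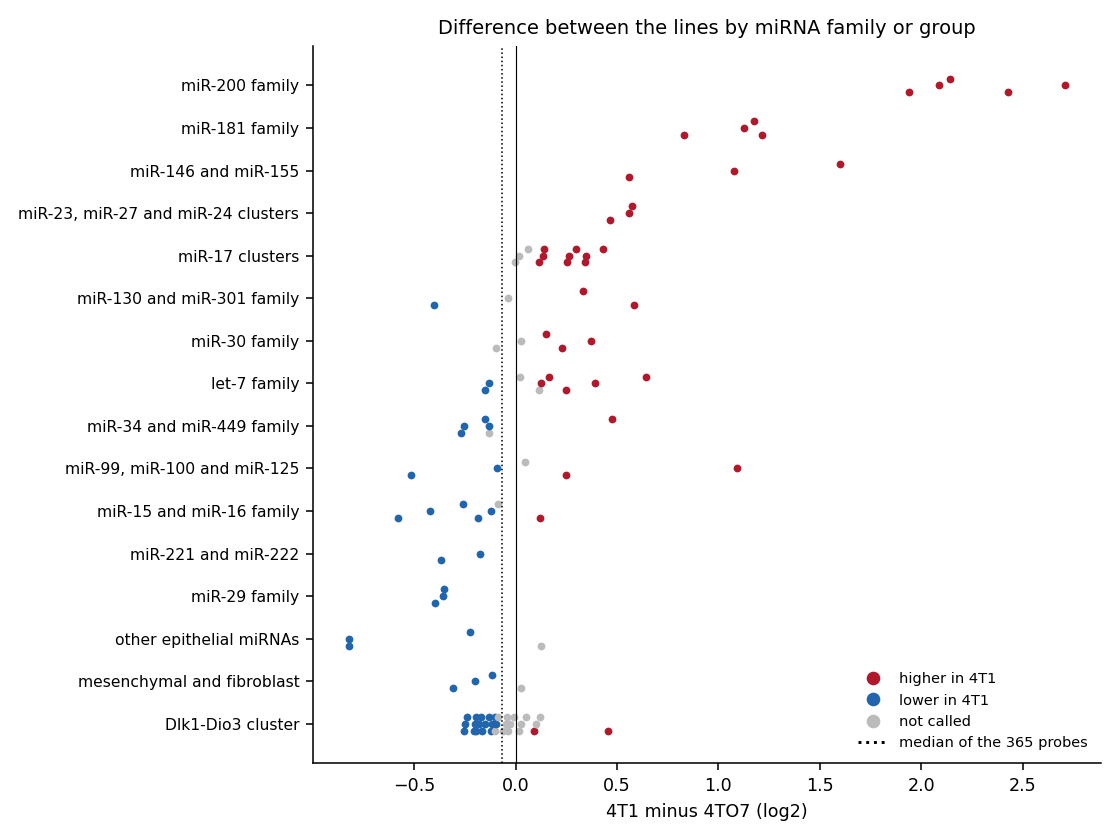
Difference between 4T1 and 4TO7 over 4 conditions (log2, horizontal axis) for each tested member of 16 families or groups, with 1 point per probe coloured by its call, small vertical offsets for legibility and a dotted line at the median of the 365 probes (-0.0675). The miR-200 and miR-181 families lie wholly to the right, the miR-29 family wholly to the left, and the miR-130 and miR-301 family on both sides.

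Of 4 tested mesenchymal miRNAs 3 were lower in 4T1 and none higher, with a median of -0.16. Without normalization and with spike-in scaling 1 was higher and none lower (medians 0.0296 and 0.0788). MiR-143, a defining stromal miRNA, was detected on none of the 16 arrays but on all 8 67NR arrays, and its mean level was 7.01 in 67NR. MiR-214 ran between 12.66 and 13.01 in 4T1 and between 13.01 and 13.13 in 4TO7 (-0.31 ± 0.03), and miR-199a-5p was lower by 0.12 ± 0.03. Both turned in sign with spike-in scaling. In the imprinted Dlk1-Dio3 cluster of chromosome 12, 16 of 31 tested probes were lower and 2 higher, with a median of -0.10, but without normalization 6 were higher and none lower. Of miRNAs that others have reported to promote metastasis 6 of 7 were higher in 4T1, and of those reported to suppress it 5 of 10 were higher and 2 lower. Among the reported suppressors miR-146a and miR-200b were higher and miR-205 lower.

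Markers of other cell types differed in how many were detected. Of 7 blood miRNAs 6 were detected on none of the 16 arrays, while the red cell miRNA miR-451 was detected on all 16 and did not pass (-0.11 ± 0.07). Both probes of the endothelial miR-126 were undetected on all 16. Of 6 muscle miRNAs 5 were undetected on all 16 and miR-208b fell by 0.30 ± 0.05. Of 6 neural and liver miRNAs 2 were undetected on all 16, and of the 4 tested 1, miR-9, was higher and 2 were lower. Of 15 miRNAs of embryonic stem cell clusters 8 were undetected on all 16, and of the 6 tested 3 were lower and none higher. Among all 365 tested probes 40.0% were lower and 23.0% higher. No member of the muscle, neural and liver or embryonic lists, miR-208b included, was called lower without normalization or with spike-in scaling. The summed neural and liver signal was 9.96 to 10.14 on 4T1 arrays and 9.85 to 10.04 on 4TO7 arrays. The summed blood signal was 10.64 to 10.95 on 4T1 arrays and 10.79 to 10.97 on 4TO7 arrays, and the summed endothelial signal 7.92 to 8.14 and 7.83 to 8.17 in the same order. These sums add probes whose levels are not comparable and that were largely undetected, for the endothelial list wholly so. They are therefore not amounts of a cell type. Any part of such cells in the differences was not tested.

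The genome context was compared over the whole array. RefSeq placed 286 of the 365 tested probes, and 39 clusters, defined as hairpins within 10 kb on 1 strand, held at least 2 tested miRNAs. Among the 30 clusters with at least 2 changed probes, these were all higher in 4 clusters, all lower in 11 and in both directions in 15. Over all tested probes 23.0% were higher and 40.0% lower. The cluster counts hold for quantile normalization only and were not repeated under other settings. Without normalization 17 probes were called lower on the whole array, and with spike-in scaling 7. Probes of miRNAs with copies in 2 clusters, such as miR-29b, miR-181a and miR-24, count in both, so the clusters are not separate measurements. Passenger strands are counted as probes. MiR-200c* and miR-200b*, miR-27a* and miR-27b*, and miR-183* were the only lower probes of their clusters, which are among the 15. MiR-301b and miR-130b were mixed without a passenger strand. Of 62 hairpins with both strands tested, 24 had both strands called, 16 of them in the same direction. MiR-425 and miR-425* (0.08) were both higher, and miR-140 and miR-140* both lower. MiR-191 was higher by 0.33 and miR-191* lower by 0.16. The lower strand of each of the 8 hairpins called in opposite directions, miR-191* included, turned in sign under at least 1 other setting.

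Within single conditions, 143 probes differed in compliant basal (39.2%), 55 higher in 4T1 (15.1%) and 88 lower (24.1%). In compliant TGFb 108 differed (29.6%), 51 higher (14.0%) and 57 lower (15.6%). In rigid basal 134 differed (36.7%), 58 higher (15.9%) and 76 lower (20.8%), and in rigid TGFb 104 (28.5%), 45 higher (12.3%) and 59 lower (16.2%). Without 1 array of the condition these counts fell to as few as 79, 70, 80 and 64, so the counts rest on the small number of arrays. Whether the response to TGFb differed between the lines was tested as the difference of the TGFb minus basal effect, 4T1 minus 4TO7. It passed for 41 of 365 probes (11.2%), with 17 positive (4.66%) and 24 negative (6.58%). The corresponding test for rigid minus compliant passed for 6 (1.64%), with 3 in each direction (0.822% each).

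**Figure D5:**
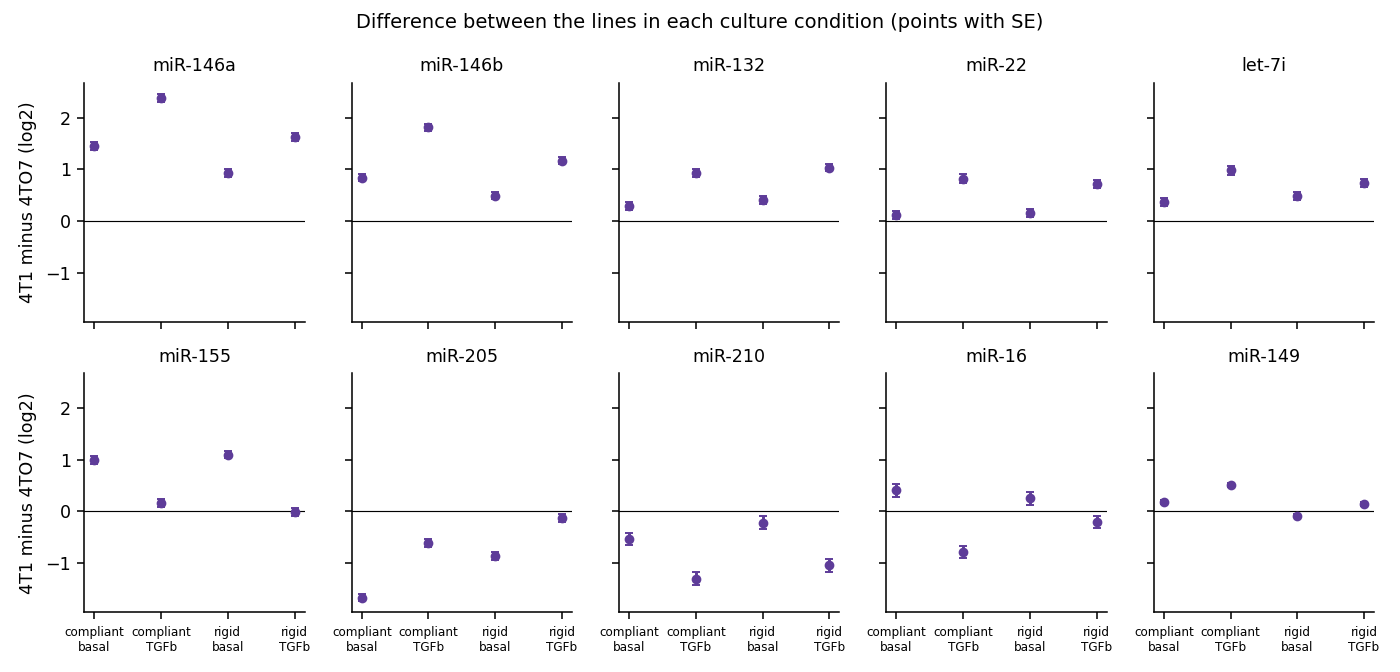
Difference between 4T1 and 4TO7 (log2, vertical axis) in each of the 4 conditions (horizontal axis) for 10 miRNAs, as points with standard errors from the fit (2 arrays per line and condition). MiR-146a, miR-146b, miR-132, miR-22 and let-7i differ most under TGFb, miR-155 passes the test only under basal conditions, and miR-205, detected only in 4TO7 and only in compliant basal, differs most there.

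MiR-146a and miR-146b had the widest gap where TGFb met the compliant microenvironment, a condition in which the lines shared no slide. On the 4T1 arrays miR-146a had 7.86 and 7.89 in compliant basal, 9.42 and 9.24 in compliant TGFb, 7.30 and 7.22 in rigid basal, and 8.34 and 8.35 in rigid TGFb. The matching 4TO7 values were 6.47 and 6.38, 6.84 and 7.04, 6.36 and 6.29, and 6.70 and 6.72. In 4TO7 the 2 compliant TGFb arrays alone were above the detection limit. With TGFb miR-146a was higher by 1.27 in 4T1, against 0.45 in 4TO7, where the basal level was at background (difference 0.82 ± 0.08, adjusted p = 2.42e-06 in limma). In the rigid microenvironment it was lower by 0.80 in 4T1 and by 0.17 in 4TO7, where most arrays were at background (difference -0.63 ± 0.08, adjusted p = 9.22e-05). MiR-146b showed the same order of conditions, with differences of the TGFb and rigid responses of 0.83 ± 0.07 and -0.50 ± 0.07 (adjusted p = 5.52e-07 and 0.000247). The rigid difference of miR-146b did not pass with spike-in scaling (-0.75, adjusted p = 0.0913).

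MiR-132, miR-22 and let-7i were detected on every array of both lines and rose more with TGFb in 4T1. MiR-132 had 8.34 and 8.56 in compliant basal, 9.02 and 9.19 in compliant TGFb, 8.45 and 8.39 in rigid basal, and 9.26 and 9.21 in rigid TGFb cultures of 4T1. The 4TO7 values all lay between 7.98 and 8.25, so the TGFb effect was 0.74 in 4T1 and 0.10 in 4TO7 (difference 0.64 ± 0.07, adjusted p = 1.93e-05 in limma). MiR-22 rose by 1.26 in 4T1 and by 0.62 in 4TO7 (difference 0.63 ± 0.08, adjusted p = 5.24e-05), and the lines differed by 0.82 and 0.71 with TGFb but only by 0.12 and 0.15 without, neither of the last pair past the threshold. For let-7i the effects were 0.76 and 0.33 in the same order (adjusted p = 0.00228). With spike-in scaling the differences of response of miR-132 and miR-22 were 0.55 and 0.63 and did not pass (adjusted p = 0.321 each in limma).

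MiR-155 behaved in the opposite way. Its 4T1 levels were 7.37, 7.62, 7.77 and 7.76 on the basal arrays and 7.88, 7.82, 7.84 and 7.69 on the TGFb arrays. In 4TO7 they were 6.50, 6.50, 6.68 and 6.65 on the basal arrays, none of them detected, and 7.60, 7.77, 7.78 and 7.79 on the TGFb arrays. MiR-155 was therefore at least 1.99-fold higher in 4T1 in compliant basal and at least 2.15-fold higher in rigid basal, and with TGFb the lines differed by 0.17 in the compliant and by -0.02 in the rigid microenvironment, neither past the threshold (adjusted p = 0.114 and 0.883). The TGFb response differed by -0.97 ± 0.08 between the lines (adjusted p = 5.34e-07), measured from a background level in 4TO7.

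MiR-210 also depended on treatment, and miR-205 could be followed in 1 condition only. MiR-205 was detected only on the 2 compliant basal arrays of 4TO7, so no size is given here for its responses, which would set these arrays against undetected signals. MiR-210 on the 4T1 arrays had 9.51 and 9.60 in compliant basal, 8.41 and 8.34 in compliant TGFb, 9.49 and 9.17 in rigid basal, and 8.11 and 8.0 in rigid TGFb. The 4TO7 arrays had 10.22 and 9.96, 9.71 and 9.65, 9.58 and 9.51, and 9.28 and 8.91 in the same order. It fell by 1.23 with TGFb in 4T1 and by 0.43 in 4TO7 (difference -0.80 ± 0.12, adjusted p = 0.000367). The gap between the lines was -1.31 and -1.05 with TGFb, against -0.54 and -0.22 under basal conditions, the last of which did not pass (adjusted p = 0.177).

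MiR-16 changed direction between conditions. It was 0.41 higher in 4T1 in compliant basal and 0.79 lower in compliant TGFb (adjusted p = 0.0169 and 8.7e-05 in limma), so that it did not differ beyond the threshold over all conditions (-0.08 ± 0.06, adjusted p = 0.23). The TGFb effect was -0.42 in 4T1 and 0.41 in 4TO7 (difference -0.83 ± 0.12, adjusted p = 0.000221). MiR-149 differed in both responses by smaller amounts (0.27 ± 0.04 for TGFb and -0.32 ± 0.04 for rigidity, adjusted p = 5.84e-05 and 5.86e-05), partly against background, since neither 4TO7 rigid basal array detected it. MiR-706 differed in its response to rigidity, by 0.36 ± 0.06, being lower in 4T1 by 0.41 and 0.81 in the compliant but by 0.09 and 0.42 in the rigid cultures, basal before TGFb. The difference of the rigid response of miR-455 (0.24 ± 0.05) passed narrowly (adjusted p = 0.0304) and did not pass with slide as a block (adjusted p = 0.213) or in the authors' deposited table (adjusted p = 0.432). Without normalization and with spike-in scaling neither difference of miR-149 passed, nor the rigid differences of miR-706 and miR-455. MiR-31* and miR-140* had the next smallest p-values and did not pass (0.21 and -0.22, adjusted p = 0.171 and 0.247).

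Some miRNAs were close in both lines. Among probes detected on all 16 arrays with an unadjusted p over 0.5, the narrowest intervals belonged to miR-720, miR-1224 and miR-705, which are among the brightest probes and are given identical values on every array by quantile normalization, so they carry no information on the lines. The next were miR-17* and miR-28. MiR-17* averaged 7.68 ± 0.06 in 4T1 and 7.67 ± 0.06 in 4TO7 (SD, n = 8 each), a difference of 0.01 with a 95% interval of -0.04 to 0.05. MiR-28 averaged 8.08 ± 0.11 in 4T1 and 8.08 ± 0.09 in 4TO7 (SD, n = 8 each), a difference of -0.0026 with an interval of -0.06 to 0.05, which became 0.20 and 0.25 without normalization and with spike-in scaling and then passed. The guide strand miR-17 was higher in 4T1, while the difference of miR-17* did not pass.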

How the data were processed

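Total RNA with the small RNA fraction was hybridised to 2-dye miRNA arrays with 593 probes, of which 558 report mouse miRNAs and 35 are spike-ins. Per the deposited column descriptions, the authors gave for each probe a relative intensity of sample over reference dye, background subtracted and corrected for labelling, together with a detection p-value and a failure code for the reference dye. The deposited series table holds log2 values of the authors for 338 probes, and no source used here states their normalization.

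Intensities were set to log2 and quantile normalized over the 558 probes. Probes detected (p under 0.05) on both arrays of at least 1 of the 12 groups were kept, and 2 with a failure code on 12 or more arrays were dropped, which left 365, 7 of them with several miRNA names. Group means of all 24 arrays were fitted in limma 3.58.1 (R 4.3.3) with 12 residual degrees of freedom, and the 67NR arrays entered for the estimate of spread. The difference between 4T1 and 4TO7 was averaged over the 4 conditions, taken in each condition, and compared between treatments and microenvironments. P-values were adjusted over the 365 probes by Benjamini-Hochberg, with a threshold of 0.05. The number of arrays limits the precision, with a median residual SD of 0.0764.

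The miRNAs named were the 15 largest changes in each direction among those past the threshold with the same sign in every condition and set, those detected on all arrays of 1 line and none of the other, the strongest differences of response, the least changed miRNAs and members of lists of families and markers. The members and lists were chosen with earlier results of these data known, and miR-125b-3p, miR-135b, miR-425, miR-425*, miR-191, miR-191* and the other passenger strands after their values were seen. The fit did not pair arrays by set number. Deviations of the sets correlated weakly and positively between the lines (0.142, 0.0442, 0.0793 and 0.146 in the 4 conditions). Whether they reflect pairing by set was not tested. The fit was also run on simulated data with independent noise of the fitted size and no slide effect or background limit. Such a run checks the computation and not the calls. Figures were drawn with matplotlib 3.10.9.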

Additional observations from a re-analysis of the deposited data

Results flagged for a closer look

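The response to TGFb (TGFb minus basal) differed between 4T1 and 4TO7, by the test of the difference in limma, for 23 of the miRNAs named. Differences are given as 4T1 minus 4TO7 on the log2 scale, each with its adjusted p. They were positive for miR-146b (0.83, 5.52e-07), miR-146a (0.82, 2.42e-06), miR-132 (0.64, 1.93e-05), miR-22 (0.63, 5.24e-05) and let-7i (0.44, 0.00228). For miR-205 the fit gave 0.90 (5.52e-07). That value sets the 2 compliant basal arrays of 4TO7 against undetected signals and is not a measured response. Smaller positive differences were those of miR-503 (0.35, 0.00299), miR-149 (0.27, 5.84e-05), miR-34a (0.27, 0.0231) and miR-455 (0.20, 0.0236). They were negative for miR-155 (-0.97, 5.34e-07), miR-16 (-0.83, 0.000221), miR-210 (-0.80, 0.000367), miR-350 (-0.42, 0.000367), miR-140* (-0.40, 0.000599), miR-31* (-0.36, 0.000555) and miR-706 (-0.36, 0.000779). Smaller negative differences were those of miR-140 (-0.34, 0.00228), miR-17 (-0.34, 0.0094), miR-99b (-0.33, 0.00337), miR-148a (-0.28, 0.00299), miR-30d (-0.25, 0.0227) and miR-28 (-0.16, 0.0493).

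The response to the rigid microenvironment (rigid minus compliant) differed for 6. The difference was positive for miR-706 (0.36, 0.00255) and miR-455 (0.24, 0.0304), and negative for miR-146a (-0.63, 9.22e-05), miR-146b (-0.50, 0.000247) and miR-149 (-0.32, 5.86e-05). For miR-205 the fit gave 0.64 (7.81e-05), again set against undetected signals. This value did not pass without normalization or with spike-in scaling (adjusted p = 0.245 and 0.688 in limma). With slide as a fixed block the TGFb differences were -1.03 for miR-155, 0.93 for miR-205, 0.84 for miR-146b, 0.81 for miR-146a, -0.67 for miR-16, 0.66 for miR-22, 0.60 for miR-132 and 0.24 for miR-149, and each still passed. With spike-in scaling those of miR-132, miR-22 and miR-149 did not pass (adjusted p = 0.321, 0.321 and 0.997 in limma). That of miR-149 did not pass without normalization either (adjusted p = 0.992). The other TGFb differences listed were not followed singly under other settings. The values of miR-205, detected only on the compliant basal arrays of 4TO7, and in part those of miR-146a, miR-146b, miR-155, miR-148a and miR-149, rest on signals at background in 1 line or both.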

How the results depend on the processing

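With 2 arrays per line and condition, the counts moved more than the large differences. Without normalization between arrays 141 miRNAs differed over all conditions (17 lower), 68 in compliant basal, 45 in compliant TGFb, 46 in rigid basal and 36 in rigid TGFb, with 9 differences of the TGFb and 2 of the rigid response. With spike-in scaling, chosen after seeing the data, these counts were 130 (7 lower), 61, 42, 31, 26, 6 and 1 in the same order. With slide as a fixed block 93, 69, 86 and 69 differed in the 4 conditions and 24 in the TGFb response, and the authors' deposited table gave 3 differences of the rigid response. Why these counts moved was not tested.

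Leaving out 1 array gave 211 to 236 calls over all conditions (78 to 86 higher, 133 to 150 lower), 79 to 146 in compliant basal, 70 to 114 in compliant TGFb, 80 to 141 in rigid basal, 64 to 107 in rigid TGFb, 32 to 53 for the TGFb response and 5 to 7 for the rigid response. The counts moved by over 1.5 times without 4T1 set 2 of the condition concerned (79 in compliant basal, 70 in compliant TGFb, 80 in rigid basal, 66 in rigid TGFb), without 4TO7 set 1 in compliant basal (87) and rigid TGFb (64), and without 4TO7 set 2 in compliant basal (84). With the replicate number as a block, though the sets are not known to be pairs, 241 differed over all conditions, 45 in the TGFb and 6 in the rigid response.

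Of miRNAs that passed under at least 1 of the settings compared, signs turned without normalization for miR-28 (0.20), let-7b (0.031), miR-222 (0.013), miR-199a-5p (0.064), miR-200b* (0.15), miR-200c* (0.14) and miR-455 (0.034). With spike-in scaling they turned for miR-28 (0.25), let-7b (0.080), miR-34c (0.012), miR-222 (0.062), miR-214 (0.042), miR-199a-5p (0.11), miR-200b* (0.20), miR-200c* (0.19), miR-455 (0.083) and miR-203 (0.023). Without passing, miR-16 (0.060 and 0.109) and miR-451 (0.115 and 0.164) turned too without normalization and with spike-in scaling, as did passenger strands named in the report. Of 2793 values of single miRNAs under 31 settings, 2675 stayed on their side of the threshold, in either sign where they did not pass, 87 lost the call and 14 gained one. Probes at background in 1 line limit folds to bounds.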
